A study of Mus musculus with 6 samples.

Results

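The genes for enzymes that add or remove methyl groups on histone lysines were compared between MICT1 KO and Scr BAT cells. Members were chosen by symbol: every gene of the table whose symbol begins with Kmt2, Kmt5, Kdm1 to Kdm8, Setd, Ehmt, Suv39, Nsd, Prdm, Ezh1, Ezh2, Ash1l or Smyd, except 2 rows that the rule left out. The rule found 56 of the 13283 genes in the table and used no measured value. RNA-seq was available from 3 Scr and 3 MICT1 KO libraries of an immortalized mouse BAT cell line that stably expressed Cas9. All 6 were taken through brown adipocyte differentiation and received 10 µM forskolin, an activator of adenylyl cyclase, for 6 h on day 6. The paper reports lower expression of adipogenic genes in its MICT1 knockout cells. Scr cells carried a scrambled sgRNA and have WT as their genotype in the labels. The methods describe MICT1 KO cells as pools made with 2 sgRNAs, and the labels do not give the pool of each library. MICT1 transcript was not analysed here, and the knockout was therefore not checked in these libraries. The 3 libraries of a group are cultures of a single line, and the p-values measure the spread among them.

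Methylation of histone lysines is laid down by writers, mostly proteins with a SET domain that take the methyl group from S-adenosylmethionine. Erasers remove it, either with FAD, as the LSD family does, or with iron and alpha-ketoglutarate, as the JmjC family does. Methylation of H3K4 and H3K36 is found mostly at active promoters, enhancers and gene bodies, and methylation of H3K9, H3K27 and H4K20 largely at silent or compacted chromatin. In adipocytes these enzymes are known for work at enhancers during differentiation and, for Ehmt1 and Kdm3a among others, for the thermogenic program of brown fat.

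Among the 56 genes, most of those that changed were lower in MICT1 KO cells. Values are the deposited normalized values per gene, close to read numbers divided by a size factor for each library. A change was called at an adjusted p under 0.05 from limma-trend with Benjamini-Hochberg adjustment over all 12507 genes tested. Of the 54 members tested, 28 were lower (51.9%) and 6 were higher (11.1%) in MICT1 KO cells compared to Scr cells, and 20 were not called. Over all genes tested, 28.3% were lower and 28.5% were higher. Together, 34 members were called, or 63.0%, against 56.9% of all genes. Their median log2 fold change was -0.21, against -0.0053 over all genes. Changes were mostly small, since 9 members were lower by at least 1.5-fold (16.7% of those tested, against 11.5% of all genes) and 2 were higher by as much (3.7%, against 14.4%). By at least 2-fold, Kdm7a was lower and Setd7 was higher. These shares over all genes were 5.76% lower and 7.99% higher. By the 1.8-fold threshold that the methods name, with an unadjusted p under 0.05, Kdm7a and Setd7 were again the genes called. Over all genes tested, 7.39% were lower and 10.1% were higher by it. The methods also ask for a maximum of at least 4 RPKM and a minimum gene length, and neither was applied to these shares.

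The falls included 9 of 14 erasers and 13 of 23 writers. Over all genes tested, the shares called were 28.3% lower and 28.5% higher. At an unadjusted p under 0.05, 3805 of the 12507 genes were lower and 3808 were higher. The classes are small, and whether any of them differs from all genes was not tested. Of the 14 erasers of the named lysines, 9 were lower and none was higher, with a median log2 fold change of -0.41 (also 9 and none at an unadjusted p under 0.05, and by limma-voom). Of the 23 writers, 13 were lower and 3 were higher, with a median of -0.19. Setd7, which was higher, and Prdm9, which was lower, are counted in other classes and not among these writers or the H3K4 genes. The Smyd genes and Kdm8 are also counted outside the named lysines, and of them Smyd5 alone was called, as lower. The difference between erasers and writers was not tested. By the lysine modified, the genes lower and higher were 6 and none of 10 for H3K4, 4 and 2 of 10 for H3K9, 2 and 1 of 4 for H3K27, 6 and none of 7 for H3K36, and 3 and none of 3 for H4K20 (7, 6 and 3 lower and none higher at an unadjusted p under 0.05 for H3K4, H3K36 and H4K20). In the Kdm4 family, which acts on both H3K9 and H3K36, 1 of 3 was lower.

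**Figure D1:**
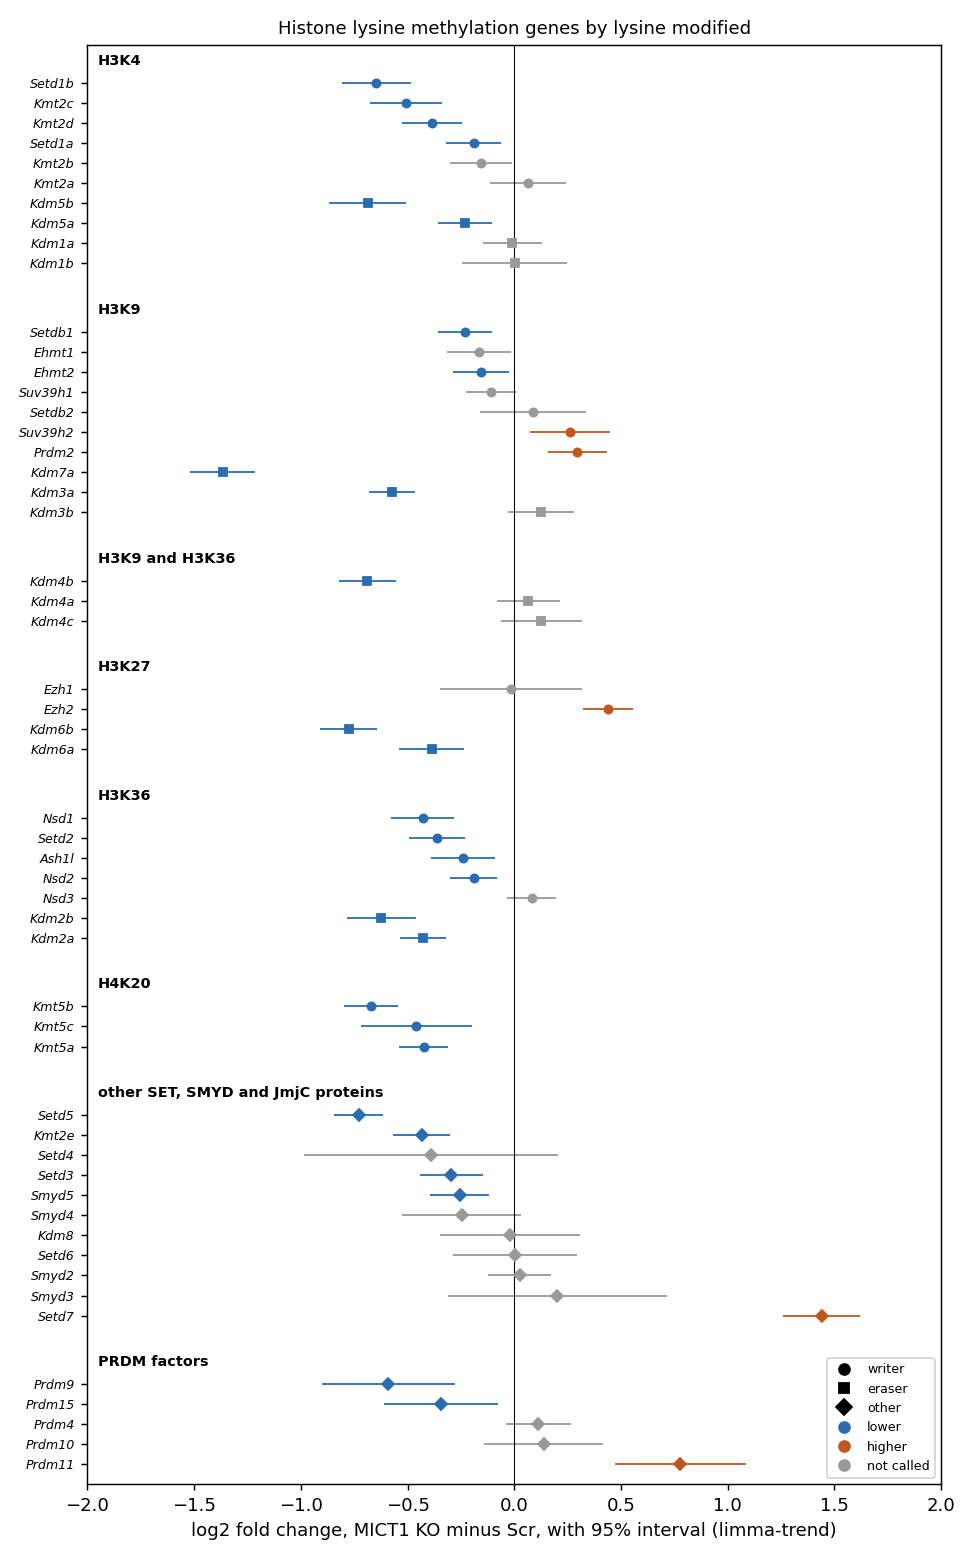
Log2 fold change of tested members, MICT1 KO minus Scr, on the x axis with the 95% interval from limma-trend, grouped by the lysine modified, with circles for writers, squares for erasers, diamonds for other members and color for the call. Most called members lie left of zero, Kdm7a lies farthest left at -1.37 and Setd7 farthest right at 1.44.

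Other features of these genes and libraries moved with the comparison. The counts of the lists below stand beside 28.3% lower and 28.5% higher over all genes tested. The label of the cells was checked against mature adipocyte genes, and 18 of 18 were lower in MICT1 KO cells, with a summed RPKM (reads scaled to exon length and library total) of 3171 to 3659 in Scr and 308 to 399.7 in MICT1 KO libraries. Cfd, Adipoq and Gpd1 changed the most (log2 fold changes -6.77, -6.66 and -6.47). Of 26 genes of dividing cells, 20 were higher and 6, all Mcm genes, were lower, and their summed RPKM was 1682 to 1712 in Scr and 2045 to 2057 in MICT1 KO libraries. Cenpe (log2 fold change 1.22), Bub1b (1.15) and Kif20a (1.04) had the largest changes among them. Of 13 adipose progenitor genes, 11 are in the table and 9 were tested, of which 3 were lower and 6 were higher, with a summed RPKM of 336 to 348 in Scr and 525 to 535 in MICT1 KO libraries. The largest changes were in Dcn (4.75), Dlk1 (-3.47) and Nt5e (-3.46). Of 10 macrophage genes, 6 are not in the table, Adgre1, Itgam and Ptprc among them, and 1 of the 4 tested, Cd14, was higher, with a summed RPKM of 6.94 to 10.7 in Scr and 15.5 to 19.2 in MICT1 KO libraries. The table lists a gene only when it is above 0 in every library. In bulk samples, fewer cells of a type and less RNA per cell cannot be told apart. The part of these shifts in the results on the members was not tested.

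The members are also long and well expressed genes. Their median exon length was 8171 bp, against 4464 bp for all genes, and their median normalized value was 1264, against 523. In the longest quartile of all genes, 34.5% were lower and 28.0% were higher. That quartile held 32 members, of which 20 were lower and 4 were higher. In the quartile with the highest values, 39.1% of all genes were lower and 31.0% were higher, and of its 26 members 19 were lower and 2 were higher.

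The H3K9 erasers held the largest fall of all members. Kdm7a (chr6:39136620-39206773, GRCm38) encodes a JmjC eraser of methyl groups from H3K9 and H3K27. It is counted here with the H3K9 erasers alone and is left out of the H3K27 counts and sums. Its normalized value was 2159, 2276 and 2593 in Scr against 868, 929 and 919 in MICT1 KO libraries. The groups were far apart, with the highest MICT1 KO library below the lowest Scr library. Kdm7a was 2.58-fold lower (log2 fold change -1.37 ± 0.072 SE, adjusted p = 1.16e-12). Leaving out any library kept the log2 fold change between -1.42 and -1.29.

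Kdm3a (chr6:71588970-71632990), an H3K9 eraser that protein kinase A phosphorylates in brown adipocytes, was the most highly expressed member per length in both groups. Its values were 7373, 7839 and 7537 in Scr against 4983, 5082 and 5246 in MICT1 KO libraries. The groups did not overlap, and Kdm3a was 1.49-fold lower (log2 fold change -0.57 ± 0.052, adjusted p = 7.20e-09). Its close relative Kdm3b was not called, with 1473, 1259.8 and 1265 in Scr against 1519.7, 1479 and 1354 in MICT1 KO libraries (log2 fold change 0.12, 95% interval -0.03 to 0.28, adjusted p = 0.16). Without Scr replicate 1, Kdm3b was called higher (0.20, adjusted p = 0.0386). Annotated exons of Kdm3b overlap another gene on the opposite strand over 24.6% of their length, and whether the counting used strand is not given in the sources used here.

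Within the Kdm4 family, erasers of H3K9 and H3K36, a single gene changed. Kdm4b (chr17:56325970-56403774) had values of 1846, 1961 and 1954 in Scr against 1205, 1143 and 1225 in MICT1 KO libraries. It was 1.61-fold lower with no overlap (log2 fold change -0.69 ± 0.064, adjusted p = 1.01e-08). Kdm4a and Kdm4c were not called, with log2 fold changes of 0.07 (95% interval -0.08 to 0.21) and 0.13 (-0.06 to 0.32).

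Writers of H3K9 moved little and in both directions. Of 7, Setdb1 and Ehmt2 were lower and Prdm2 and Suv39h2 were higher. Setdb1, the writer that KRAB zinc finger proteins bring to repeats, had a log2 fold change of -0.23 (adjusted p = 0.00291). Ehmt2 and Ehmt1 form the heterodimer G9a-GLP that dimethylates H3K9, and their log2 fold changes were alike in size, -0.16 (adjusted p = 0.0387) and -0.17 (adjusted p = 0.0537). The first call was lost without Scr replicate 1, 2 or 3 or MICT1 KO replicate 2 or 3, with an adjusted p of up to 0.191. Ehmt1 in turn was called without MICT1 KO replicate 3 (-0.22, adjusted p = 0.0277).

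Suv39h1 and Suv39h2, which trimethylate H3K9 at pericentric heterochromatin, are near relatives. Suv39h2 (chr2:3455815-3474986) had values of 574, 657 and 625 in Scr against 811, 688 and 728 in MICT1 KO libraries. The groups lay close to each other without overlapping, and the log2 fold change was 0.26 ± 0.089 (adjusted p = 0.0166). The call was lost without Scr replicate 1 (0.21, adjusted p = 0.0846) and without MICT1 KO replicate 1 (0.20, adjusted p = 0.0880). Suv39h1, the most highly expressed H3K9 writer per length, was not called (-0.11, adjusted p = 0.109), although each MICT1 KO library lay below each Scr library. Prdm2, a tumor suppressor with H3K9 writer activity, had values of 1683 to 1967 in Scr and 2185 to 2349 in MICT1 KO libraries and rose by 0.30 on the log2 scale (adjusted p = 0.000677). Setdb2 was not called (0.09, 95% interval -0.16 to 0.33).

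For H3K27 the erasers fell and a writer rose. Kdm6b (chr11:69398508-69420367), also known as JMJD3, had values of 3052, 3335 and 3411 in Scr against 1824, 1850.2 and 2049 in MICT1 KO libraries. It was 1.71-fold lower (log2 fold change -0.78 ± 0.064, adjusted p = 1.50e-09). Kdm6a (chrX:18160862-18279936), also known as UTX, a subunit of the Kmt2c and Kmt2d complexes, fell less. Its values were 1071, 1069.7 and 1033 in Scr against 768, 838 and 822 in MICT1 KO libraries, with no overlap (-0.39 ± 0.073, adjusted p = 0.000133).

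Ezh2 (chr6:47530274-47595270), the catalytic subunit of Polycomb repressive complex 2 in dividing cells, was higher in MICT1 KO cells. The 3 Scr libraries lay within a narrow range at 2012, 2044 and 2026, and the MICT1 KO libraries were at 2681, 2738 and 2825. Ezh2 was 1.36-fold higher (log2 fold change 0.44 ± 0.057, adjusted p = 1.21e-06). Its paralog Ezh1, which is typical of resting cells, had values of 169, 216 and 151 in Scr against 169, 180.2 and 175 in MICT1 KO libraries. The groups of Ezh1 overlapped, and its interval reached from -0.35 to 0.32 (adjusted p = 0.941). Summed per length, H3K27 writers went from 20.01 ± 0.229 RPKM in Scr to 26.7 ± 0.839 RPKM in MICT1 KO cells (SD, n = 3), while H3K27 erasers went from 36.4 ± 1.14 to 22.7 ± 1.34 RPKM.

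**Figure D2:**
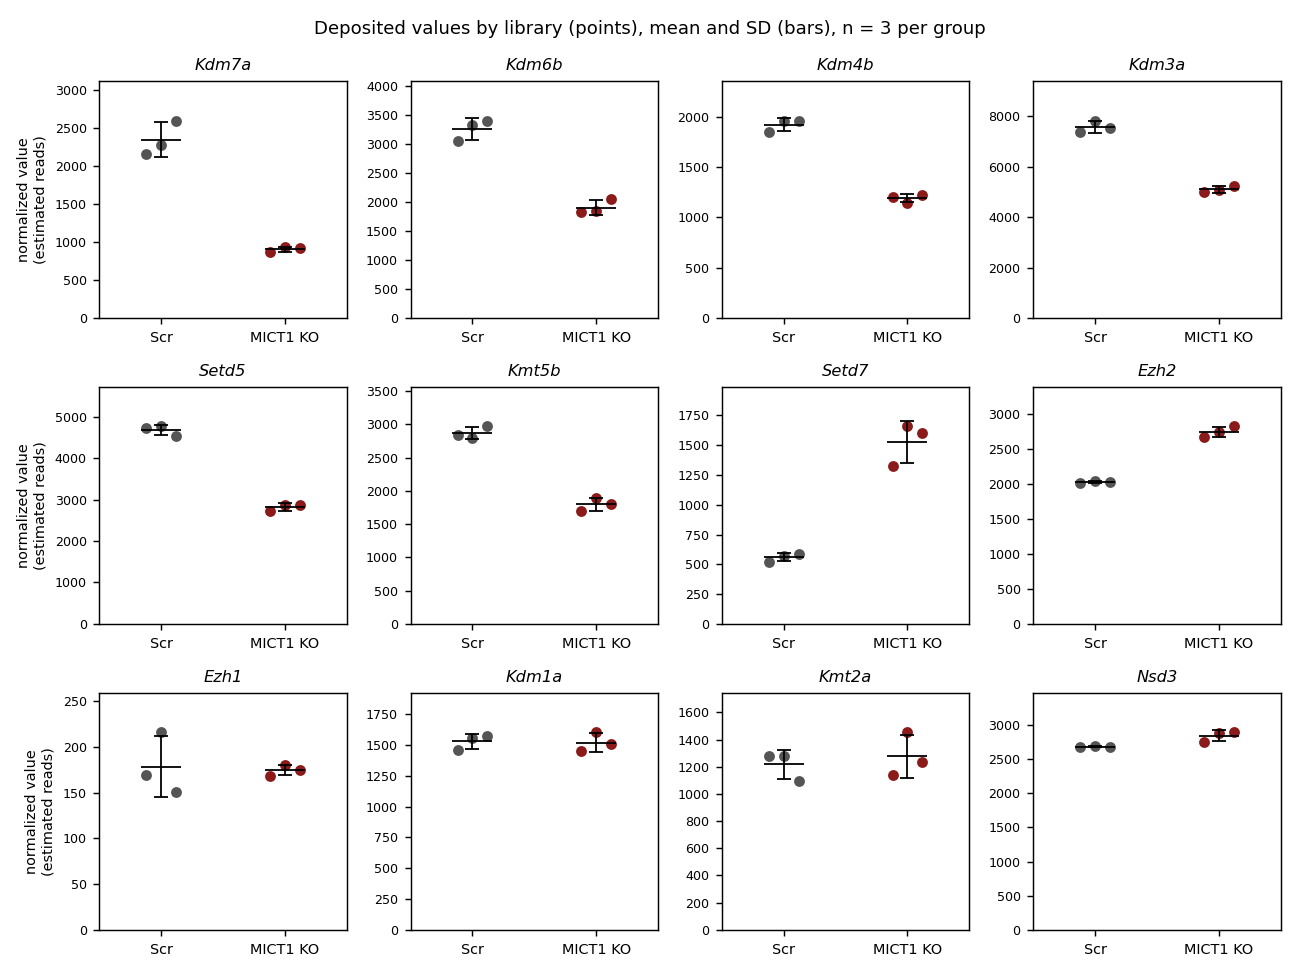
Deposited normalized values of 12 members in each library (points, n = 3 per group), with the mean and SD as bars and a linear y axis that starts at 0. Kdm7a, Kdm6b, Kdm4b, Kdm3a, Setd5 and Kmt5b are lower and Setd7 and Ezh2 are higher in every MICT1 KO library than in every Scr library, while Ezh1, Kdm1a and Kmt2a overlap and Nsd3 differs slightly without being called (log2 fold change 0.08).

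Of the 7 genes counted under H3K36, which leaves out the Kdm4 family, 6 were lower, against 28.3% of all genes tested. Nsd1, Nsd2 and Nsd3 mono- and dimethylate H3K36 in cells, Setd2 is the trimethylating enzyme that travels with RNA polymerase II, and Ash1l is a Trithorax group writer. Setd2 had values of 2489, 2478 and 2619 in Scr against 1831, 1976 and 2103 in MICT1 KO libraries (log2 fold change -0.36, adjusted p = 5.07e-05). Nsd1 was at 1787, 1809 and 1782 in Scr against 1196, 1383 and 1426 in MICT1 KO libraries (-0.43, adjusted p = 2.54e-05). The groups were apart for both genes. Nsd2 fell by 0.19 (adjusted p = 0.00425), whereas Nsd3 had a log2 fold change of 0.08 (95% interval -0.03 to 0.20, adjusted p = 0.218). Ash1l was called lower (-0.24, adjusted p = 0.00700) with overlapping groups, at 3017, 3348 and 3338 in Scr against 2422, 3034 and 2780.0 in MICT1 KO libraries. Its call was lost without MICT1 KO replicate 1 (-0.15, adjusted p = 0.0504).

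Both erasers counted under H3K36 were lower. The Kdm4 genes, which also act on H3K36, are counted apart, and 1 of those 3 was lower. Kdm2b, the CpG island binding subunit of a variant Polycomb repressive complex 1, had values of 1268, 1429 and 1459 in Scr against 888, 975 and 836 in MICT1 KO libraries (log2 fold change -0.62 ± 0.078, adjusted p = 7.68e-07). Kdm2a was the fifth member by level in Scr cells, and its values were 6168, 6301 and 6261 in Scr against 4536, 4840.4 and 4563 in MICT1 KO libraries (-0.43 ± 0.052, adjusted p = 5.56e-07). Neither gene had overlapping groups.

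Against 28.3% of all genes tested, 4 of the 6 H3K4 writers were lower. These are the catalytic subunits of the COMPASS-like complexes, of which Setd1a and Setd1b act mainly at promoters, Kmt2a and Kmt2b at Hox genes and bivalent promoters, and Kmt2c and Kmt2d at enhancers. Kmt2c had values of 1044, 1253 and 1087 in Scr against 757, 826 and 793 in MICT1 KO libraries (log2 fold change -0.51 ± 0.080, adjusted p = 1.75e-05). Kmt2d was at 2217, 2358 and 2324 in Scr against 1672, 1959.7 and 1665 in MICT1 KO libraries (-0.38 ± 0.068, adjusted p = 6.12e-05). Both enhancer enzymes were thus lower with groups apart. Setd1b fell the most among these writers, from 1228, 1331 and 1316 in Scr to 794, 909 and 777 in MICT1 KO libraries (-0.65 ± 0.077, adjusted p = 3.97e-07).

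Setd1a had a log2 fold change of -0.19 (adjusted p = 0.0135), and its call was lost without MICT1 KO replicate 1 (-0.14, adjusted p = 0.0656). Another gene annotated on the same strand covers 51.9% of the exon length of Setd1a, so its value is uncertain. Kmt2a and Kmt2b were not called, and both had overlapping groups. Kmt2a had a log2 fold change of 0.06 with an interval from -0.12 to 0.24. Kmt2b was at -0.16 (adjusted p = 0.0613) and was called lower without MICT1 KO replicate 2 (-0.23, adjusted p = 0.00877).

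Among H3K4 erasers, the JmjC enzymes fell and the LSD enzymes were not called. Kdm5b (chr1:134560178-134632878) had values of 891, 900.1 and 912 in Scr against 627, 529 and 528 in MICT1 KO libraries. It was 1.61-fold lower (log2 fold change -0.69 ± 0.086, adjusted p = 8.30e-07). Kdm5a, the more highly expressed of the pair per length, fell by 0.23 (adjusted p = 0.00257). Kdm1a, or LSD1, was at 1458, 1558 and 1571 in Scr against 1453, 1603 and 1506 in MICT1 KO libraries. Its groups overlapped, and the interval of the log2 fold change was -0.15 to 0.13. The interval for Kdm1b was wider, -0.24 to 0.25, at a lower level.

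All 3 H4K20 writers were lower. Kmt5a adds the monomethyl mark during the cell cycle, and Kmt5b and Kmt5c extend it to di- and trimethylation. Kmt5b (chr19:3767362-3818303) had values of 2839.6, 2800.4 and 2969 in Scr against 1702, 1893 and 1808 in MICT1 KO libraries (log2 fold change -0.67 ± 0.061, adjusted p = 6.02e-09). Kmt5a was at 4225, 4133 and 4497 in Scr against 3274, 3141 and 3158 in MICT1 KO libraries (-0.42 ± 0.055, adjusted p = 1.31e-06). Kmt5c was at 523, 407 and 481 in Scr against 284, 389.8 and 356 in MICT1 KO libraries (-0.46 ± 0.13, adjusted p = 0.00377). The groups did not overlap for any of the 3 genes, though the highest MICT1 KO library of Kmt5c came close to its lowest Scr library. Summed per length, the H4K20 writers were at 68.4 ± 3.58 RPKM in Scr and 49.6 ± 0.685 RPKM in MICT1 KO cells.

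**Figure D3:**
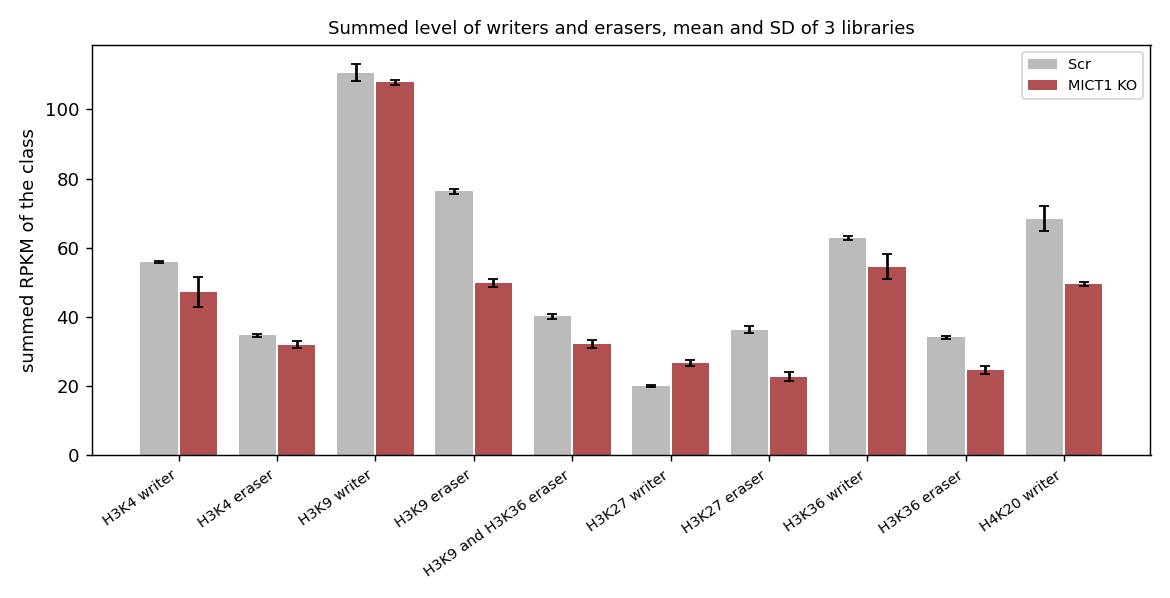
Summed RPKM of the writers and erasers of each named lysine, as the mean of 3 libraries with the SD as error bars, in Scr (gray) and MICT1 KO (red) cells, on a y axis that starts at 0. Of the 10 classes plotted, H3K27 writers alone have the higher bar in MICT1 KO cells, 26.7 against 20.01 RPKM. H3K9 erasers show the tallest drop, from 76.3 to 49.9 RPKM. From Scr to MICT1 KO cells, Ezh2 went from 18.5 to 25.2 RPKM and Ezh1 from 1.46 to 1.44. Kdm3a went from 56.3 to 38.0, Kdm7a from 14.2 to 5.52 and Kdm3b from 5.78 to 6.31.

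Setd7 (chr3:51515318-51560823) showed the largest rise of all members. It encodes a lysine methyltransferase that monomethylates H3K4 in vitro and many proteins that are not histones, and it is counted here with the other SET, SMYD and JmjC proteins. Its values were 523, 567 and 589 in Scr against 1322, 1657 and 1599 in MICT1 KO libraries. The lowest MICT1 KO library was well above the highest Scr library, and Setd7 was 2.71-fold higher (log2 fold change 1.44 ± 0.087, adjusted p = 9.86e-12). The log2 fold change stayed between 1.38 and 1.54 without any library.

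The promoters of Kdm7a and Setd7, the members that changed the most, and of Suv39h2, which rose and held a searched motif, are shown from 250 bases before to 50 bases after the start of the gene. They are RefSeq sequences on GRCm38.p6, 5′ to 3′ on the strand of the gene, with a motif in capitals where there is one. Kdm7a is at chr6:39206724-39207023, Setd7 at chr3:51560774-51561073 and Suv39h2 at chr2:3474937-3475236, all on the minus strand.
Kdm7a: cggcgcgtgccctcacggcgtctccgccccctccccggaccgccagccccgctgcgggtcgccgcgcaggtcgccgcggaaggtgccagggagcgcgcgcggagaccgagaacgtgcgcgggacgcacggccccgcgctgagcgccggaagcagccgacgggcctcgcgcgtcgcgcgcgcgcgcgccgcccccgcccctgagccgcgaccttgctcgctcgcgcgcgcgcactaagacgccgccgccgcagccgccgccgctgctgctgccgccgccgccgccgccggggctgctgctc
Setd7: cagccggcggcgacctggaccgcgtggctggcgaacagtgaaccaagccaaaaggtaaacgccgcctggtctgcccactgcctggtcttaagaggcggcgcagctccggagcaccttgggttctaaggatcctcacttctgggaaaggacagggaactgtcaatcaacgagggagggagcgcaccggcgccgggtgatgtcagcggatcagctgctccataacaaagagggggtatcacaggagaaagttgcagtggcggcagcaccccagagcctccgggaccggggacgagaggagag
Suv39h2: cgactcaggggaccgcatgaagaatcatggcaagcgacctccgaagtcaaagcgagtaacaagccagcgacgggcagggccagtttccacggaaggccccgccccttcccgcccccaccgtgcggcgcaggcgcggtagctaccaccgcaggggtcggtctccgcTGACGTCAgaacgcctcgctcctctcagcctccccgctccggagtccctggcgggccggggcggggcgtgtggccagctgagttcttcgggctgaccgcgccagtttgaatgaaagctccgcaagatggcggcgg
The GC content of these windows was 82.7% for Kdm7a, 62.7% for Setd7 and 68.3% for Suv39h2. Over the 41 members with a promoter sequence, the median was 63.7%, and over the 10578 genes of the table with one it was 60.7%.

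Searched letters, on both strands, were TGACGTCA for the cAMP response element (CRE), TGANTCA for an AP-1 site, TTTGGCGC for an E2F site and CACGTG for an E-box, a choice made after the results were seen. A CRE was found in 1 of the 41 members, Suv39h2, starting 85 bases before the start, and in 3.51% of the 10578 genes. The E2F letters were found in Ezh2 alone among the members and in 1.16% of genes. In Ezh2 they lay 3 bases after the start used by the promoter table, which is 240 bases inside the gene from its outermost annotated start. AP-1 letters were in Kdm3a, Kdm4a and Prdm1 (6.27% of genes), and the E-box was in Ehmt2, Kdm4c, Kdm6a, Prdm10 and Smyd4 (11.7% of genes). The windows of Kdm7a and Setd7 held none of these letters. These matches describe letters within the windows.

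Of the other SET, SMYD and JmjC proteins, 4 of the 11 tested were lower and Setd7 alone was higher. Among all genes tested, 28.3% were lower and 28.5% were higher. Setd5 (chr6:113077262-113153432) carries a SET domain and is known from intellectual disability. Its values were 4732, 4765 and 4546 in Scr against 2719.9, 2874 and 2873 in MICT1 KO libraries. Setd5 was 1.66-fold lower (log2 fold change -0.73 ± 0.054, adjusted p = 3.09e-10). Kmt2e, its nearest relative by SET domain, was at 2484, 2579 and 2522 in Scr against 1833, 2049 and 1746 in MICT1 KO libraries (-0.43, adjusted p = 7.79e-06). The groups were apart for both. Setd3, which methylates a histidine of actin, fell by 0.30 (adjusted p = 0.00128), and Smyd5 fell by 0.26 (adjusted p = 0.00237). Smyd2, Smyd3, Smyd4, Setd4, Setd6 and Kdm8 were not called, and of these Smyd4 alone had groups that did not overlap.

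The PRDM factors, zinc finger proteins with a PR domain related to SET, changed in both directions at low levels. Prdm9 and Prdm15 were lower, Prdm11 was higher, and Prdm4 and Prdm10 were not called. Prdm11 was at 228, 218 and 161 in Scr against 343, 393 and 301 in MICT1 KO libraries (log2 fold change 0.78 ± 0.15, adjusted p = 0.000135). Prdm9, which trimethylates H3K4 at meiotic hotspots, was at 227, 202 and 212 in Scr against 156, 136 and 133 in MICT1 KO libraries (-0.59 ± 0.15, adjusted p = 0.00218). Both had groups apart, at 0.726 and 3.03 RPKM in Scr cells. Prdm15 had a log2 fold change of -0.34 (adjusted p = 0.0283) and lost its call without Scr replicate 1, Scr replicate 2 or MICT1 KO replicate 2 (adjusted p = 0.105, 0.125 and 0.109).

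Prdm1 and Smyd1 did not reach the minimum value of 10 in 3 libraries and were not tested. Prdm1, or Blimp1, was at 14.8, 0.927 and 15.3 in Scr against 6.67, 5.27 and 1.04 in MICT1 KO libraries. Smyd1, a factor of striated muscle, was at 5.93, 13.9 and 1.02 in Scr against 0.953, 1.05 and 3.11 in MICT1 KO libraries. Both overlapped between groups.

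Counting the libraries without a model, all 3 MICT1 KO libraries lay below all 3 Scr libraries for 30 of the 54 tested members (55.6%) and above them for 8 (14.8%). Over all genes tested the shares were 31.2% and 30.9%, or 62% in either direction.

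The 3 most highly expressed members were the same in both groups, and the order changed from rank 4 down. In RPKM, Kdm3a was at 55.7 to 57.4 and Kmt5a at 46.9 to 51.7 in Scr libraries, with no overlap. Next came Suv39h1 at 28.5 to 29.6 and Kdm6b at 27.3 to 29.9, which did not differ beyond their spread. In MICT1 KO libraries the ranges of Kdm3a (36.9 to 39.3) and Kmt5a (36.4 to 37.5) overlapped. Ezh2 went from rank 12 of 56 in Scr cells to rank 4 in MICT1 KO cells, at 18.5 and 25.2 RPKM. Kdm6b went from rank 4 to rank 11 and Kdm7a from rank 19 to rank 34. Setd7 moved from rank 46 to rank 27, and Smyd1 and Prdm1 were the lowest in both groups.

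Ratios of related enzymes within a library do not depend on the scaling of that library, and 18 such pairs were compared, chosen after the results were seen. The groups did not overlap in 14 pairs and overlapped in 4. Of all single genes tested, 62% had groups that did not overlap. The share among other pairs of genes was not computed, and some genes are in more than 1 pair. For a pair without overlap the exact permutation test gave p = 0.1 (2-sided), the smallest that 3 against 3 libraries allow, and 0.129 after adjustment over the 18 pairs. The log2 ratio of Kdm4b to Kdm4c went from 2.04 ± 0.049 (SD, n = 3) in Scr to 1.22 ± 0.086 in MICT1 KO cells, and that of Kdm3a to Kdm3b from 3.29 ± 0.17 to 2.59 ± 0.12. The ratio of Kdm6b to Kdm6a went from 1.89 ± 0.11 to 1.51 ± 0.088. In these 3 pairs every MICT1 KO library had the lower ratio. In the other direction, Ezh2 to Ezh1 went from 3.68 ± 0.26 to 4.13 ± 0.044 and Kdm5a to Kdm5b from 1.58 ± 0.035 to 2.04 ± 0.20. The ratios that overlapped were Ehmt1 to Ehmt2, Kdm1a to Kdm1b, Kmt2c to Kmt2d and Kmt5b to Kmt5c (exact permutation p = 0.9, 0.9, 0.3 and 0.2).

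**Figure D4:**
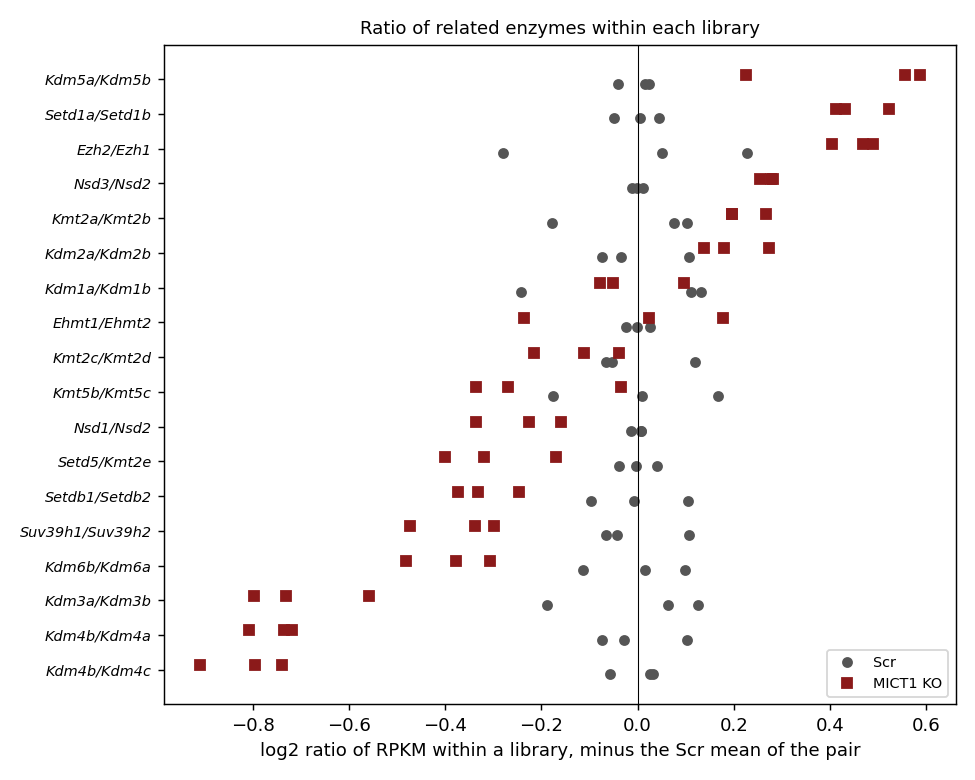
Log2 ratio of RPKM of 18 pairs of related enzymes in each library, minus the Scr mean of the pair, with circles for Scr and squares for MICT1 KO libraries (3 each). Kdm4b to Kdm4c lies lowest (difference of means -0.82), Kdm5a to Kdm5b and Setd1a to Setd1b lie highest (0.46 each), and 4 pairs overlap. The value of Setd1a is uncertain, since another gene annotated on the same strand covers much of its exon length.

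The partners that these enzymes need for activity and targeting were read from the same fit. The counts of this list and those that follow stand beside 28.3% lower and 28.5% higher over all genes tested. Whether any list differs from these shares was not tested. Of 15 subunits of the H3K4 writer complexes, 2 were lower and 3 were higher, with a median log2 fold change of 0.03. Ncoa6, a subunit of the Kmt2c and Kmt2d complexes, had the largest change (-0.61), and Pagr1a (0.27) and Men1 (0.23) were higher. Of 9 subunits of Polycomb repressive complex 2, 4 were lower and 2 were higher, with a median of -0.11. Jarid2, which guides the complex to chromatin, was lower (-1.47, adjusted p = 1.33e-13), and the Polycomb-like subunits Phf1 and Phf19 were higher (0.93 and 0.56). The core subunits Suz12 and Eed, named after their values were seen, had log2 fold changes of -0.24 (adjusted p = 0.00377) and -0.11 (adjusted p = 0.164).

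The list of H3K9 writer partners and readers had 12 symbols, of which 11 are in the table and 10 were tested, with 1 lower and 4 higher and a median of 0.02. Atf7ip, the partner of Setdb1, rose by 0.52, Pphln1 fell by 0.32 and Mphosph8 rose by 0.26. Of 10 LSD1 complex subunits, 5 were lower and 4 were higher, with a median of -0.14. The largest changes were in Zmym3 (-1.46), Rcor2 (-1.18) and Hdac1 (0.86). Of 11 genes of methyl donor supply, 5 were lower and 2 were higher, with a median of -0.18, and the largest changes were in Nnmt (-2.02), Ahcyl2 (-0.99) and Ahcy (-0.89). Nnmt uses S-adenosylmethionine to methylate nicotinamide, and Ahcy hydrolyzes the S-adenosylhomocysteine that methyltransferases leave. The list of related enzymes and older symbols outside the rule had 21 symbols, of which 11 are not in the table. Of the 10 tested, 4 were lower and 6 were not called, with a median of -0.20. Dot1l, the H3K79 writer, fell most (-1.12, adjusted p = 6.36e-13), followed by the JmjC proteins Jmjd1c (-0.82) and Phf2 (-0.75).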

How the data were processed

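RNA-seq values of 6 libraries, 3 Scr and 3 MICT1 KO, were read by group and replicate number from the labels. The authors deposited a normalized signal per gene, read here as estimated reads divided by a size factor of 0.949 to 1.08. Depth, estimated from the steps of low values (88.7% to 90.4% whole within 0.01), was 15445791 to 17925567 reads per library and limits the precision of low genes. The methods and processing notes name stranded total RNA libraries, STAR and Partek with mm10. The counting model is not given in the sources used here. Values were compared on the scale of log2(value + 1) with limma-trend (limma 3.58.1, R 4.3.3). A minimum of 10, reached by 3 or more libraries, left 12507 genes, over which p-values were adjusted by Benjamini-Hochberg. Fold changes are on that log2 scale with SE. RPKM used exon lengths of GENCODE vM21, and positions are from RefSeq on GRCm38. The fit was tested on simulated data. Full statistics were given for the 15 called members with the largest changes and for members compared with a relative, and other lists were named by their 3 largest called changes. The members and lists were chosen with earlier results of these data known. Alternatives changed the scaling, filter, pseudocount, model, threshold, replicate block and libraries used. The values of 1 member counted in the totals are not reported here.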

Additional observations from a re-analysis of the deposited data

How the results depend on the processing

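Of the 34 called members, 28 kept their call and direction in each of 15 other fits in which they were tested (24 lower, 4 higher), and no member reversed its direction under a call. Scaling by library size or by trimmed means, limma-voom, pseudocounts of 0.5 and 5, no filter, and a maximum of at least 4 CPM (53 members tested) changed the call of no member tested. A maximum of at least 4 RPKM left 42 members tested, added Ehmt1 (adjusted p = 0.0484 from limma-trend) and left 0 PRDM factors lower and 0 higher, since it removed low genes. With the 1.8-fold threshold and an unadjusted p, 924 genes were lower and 1265 were higher, and among the members 1 was lower and 1 was higher. By class this gave 0 lower for H3K4, H3K36, H4K20, H3K9 and H3K36 together, and the other SET, SMYD and JmjC proteins, 0 lower and 0 higher for H3K27 and for PRDM factors, and 1 lower and 0 higher for H3K9.

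Leaving out 1 library left 26 to 28 members lower and 5 to 6 higher. H3K9 genes called higher numbered 1 to 2 (1 without MICT1 KO replicate 1). PRDM factors called lower numbered 1 to 2 (1 without Scr replicate 1, Scr replicate 2 or MICT1 KO replicate 2), and those called higher 1 to 2 (1 without Scr replicate 3). The replicate block gave 28 members lower and 6 higher and changed no member's call. No clear pairing by replicate number was seen: same-numbered deviations correlated at -0.02, -0.02 and 0.06. Only those of number 3 correlated best with their own number. With 3 libraries per group, these correlations cannot show whether same-numbered cultures were handled together. Depth limits the genes at low values most, such as Setd4, whose log2 interval was -0.98 to 0.20.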
